A study of Macaca mulatta with 6 samples.

Results

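The smooth muscle and contractile cytoskeleton genes were examined in cultured rhesus monkey spermatogonial stem cells (SSCs) with and without platelet-derived growth factor (PDGF). The 42 genes were chosen by symbol, for what they are known to encode, with earlier results of these data known. Among the 17795 genes counted, 41 of them were found. MYL9 was not analysed here. Of the 41, 40 passed the filter on low counts, and MYOCD did not. They were read in 4 groups by role: 10 smooth-muscle-restricted genes, 6 muscle-enriched genes, 23 broadly expressed actomyosin genes, and serum response factor (SRF) with its cofactors MRTFA and MRTFB. The comparison addressed whether cells given PDGF showed the contractile-to-synthetic pattern known from vascular smooth muscle.

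Smooth muscle shortens when myosin light chain kinase, switched on by calcium and calmodulin, phosphorylates the regulatory light chains of myosin, which then pulls on filaments of smooth muscle actin. Every cell has a non-muscle version of the same machinery, built from paralogues: beta and gamma actin, the non-muscle myosin heavy chains, the broadly expressed tropomyosins, calponins, transgelin 2 and filamin A. Many of these genes are targets of SRF, which is helped in smooth muscle by myocardin and in most cells by the MRTF proteins, whose entry into the nucleus depends on the pool of free actin monomer. In cultured vascular smooth muscle, PDGF is a classical agent for lowering contractile genes, while genes called synthetic, for matrix and migration, rise. In the testis, ACTA2 and MYH11 mark the peritubular myoid cells around the seminiferous tubules.

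Bulk RNA was sequenced from SSC cultures grown with PDGF (SSC PDGF+, 3 libraries) and from control cultures without it (SSC PDGF-, 3 libraries). The labels give testis as the tissue and place replicate 1 of each group in batch 1 and replicates 2 and 3 in batch 2. Donor, donor age and days in culture of these libraries were not given in the sources used here, nor was it stated whether the replicates were separate cultures, so p-values measure only the spread between these libraries. Total counts ranged from 10593805 to 14102697 per library and were higher in all SSC PDGF+ libraries. Levels are given as CPM, the counts of a gene scaled to the same library size after TMM normalization.

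The libraries were checked for the cell types they could hold. Fibroblast markers led in both groups, with a summed level of 15055 to 20479 CPM in SSC PDGF+ and 12391 to 14958 CPM in SSC PDGF-, whereas the 4 counted pan germ cell markers summed to 0.301 to 1.22 CPM and 5.09 to 9.58 CPM. COL1A2 was the most abundant fibroblast marker, and it and COL1A1 are also on the list of synthetic genes used below. Of the 7 fibroblast markers, edgeR called 1 higher with PDGF, COL6A3, and 1 lower, PDGFRA. Among all genes tested, 7.61% were called higher and 10.7% lower. The counts of PDGFRA were identical to those of FIP1L1. DDX4, a defining germ cell gene, was near 0 in SSC PDGF+ at 0.305 ± 0.262 CPM (SD, n = 3) and stood at 2.13 ± 1.31 CPM in SSC PDGF-. The spermatid markers, chiefly TNP1 and TNP2, summed to 48.7 to 76.7 CPM and 416 to 689 CPM. In bulk libraries, fewer cells of a type and less RNA per cell cannot be told apart, and this holds for every gene below.

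Of the 40 members tested, 4 were higher and 6 lower in SSC PDGF+ by edgeR's quasi-likelihood test at a Benjamini-Hochberg adjusted p under 0.05, or 25.0% of the members. This share is not far from the background: among all 11539 genes tested, 18.3% were called, 7.61% higher and 10.7% lower. The median log2 fold change (SSC PDGF+ over SSC PDGF-) was 0.03 for the members and 0.02 for all genes. Among the called members, the genes of myosin light chain kinase (MYLK), desmin (DES) and smooth muscle actin (ACTA2) fell most, MYH10, MYL6 and TPM1 fell less, and FLNC, TAGLN2, ACTN1 and TPM3 rose. The groups of libraries did not overlap in CPM for 18 members (45.0%), against 37.6% of all genes. With the replicate number as a block in the fit, 15 members were called higher and 14 lower (72.5%), against 60.1% of all genes. Correcting that fit for GC content and length moved the split to 20 higher and 9 lower, and that of all genes from 3587 higher and 3347 lower to 4191 higher and 2441 lower.

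**Figure D1:**
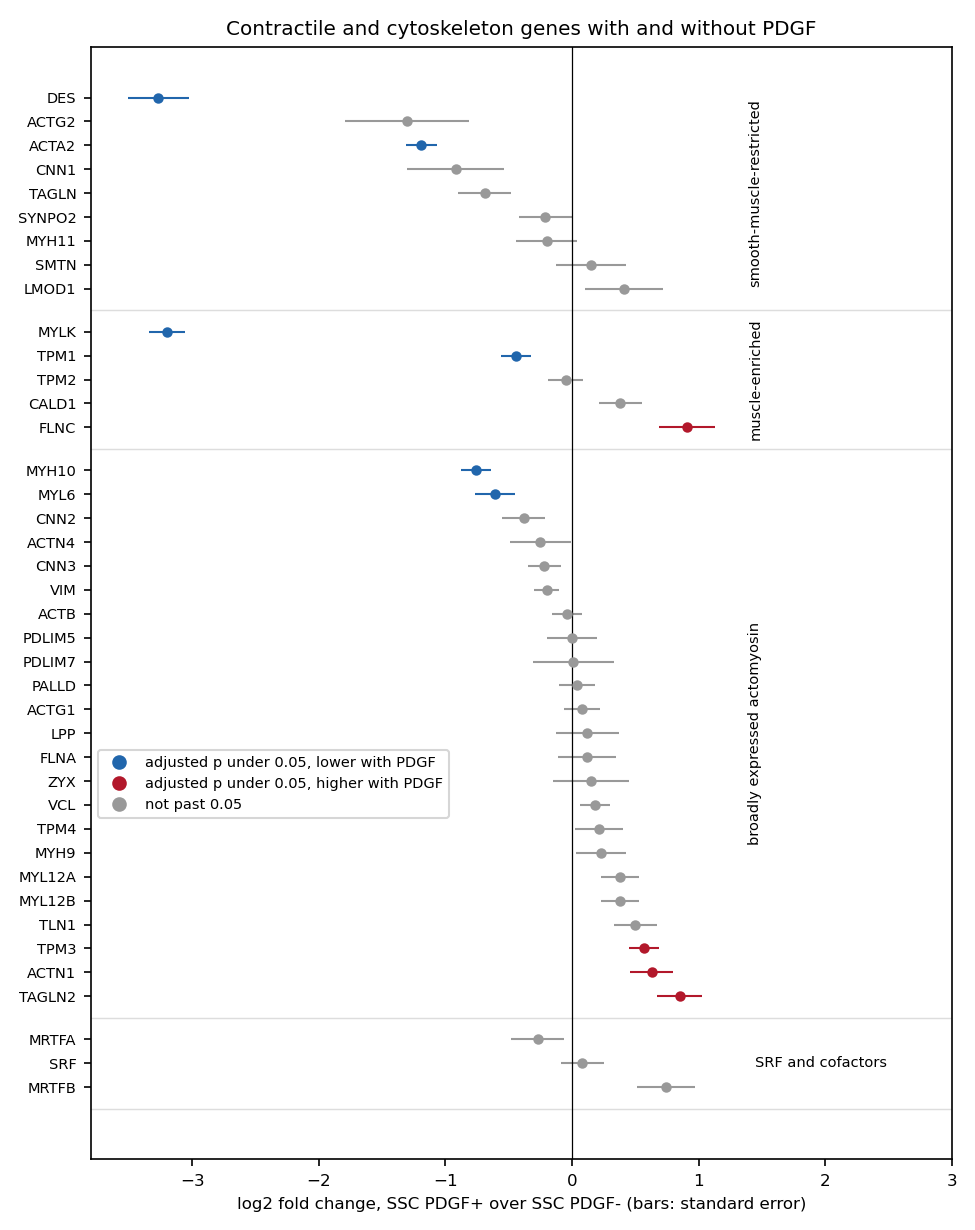
Log2 fold change of each tested member (x axis, SSC PDGF+ over SSC PDGF-, edgeR, bars are standard errors, 3 libraries per group), ordered within the 4 groups by role. DES at -3.27 and MYLK at -3.20 lie far to the left of the other 38 genes, whose values run from -1.30 for ACTG2 to 0.91 for FLNC.

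The smooth-muscle-restricted genes were grouped as markers of contractile smooth muscle, although DES and SYNPO2 also have a place in striated muscle. The name of the list does not show which cells of these cultures expressed the genes. Of the 9 tested, none was higher and 2 were lower, DES and ACTA2, or 22.2% against the 18.3% of all genes. A log2 fold change below 0 was found for 7 of the 9, and for 5609 of all 11539 genes tested. The median of the list was -0.69. At an unadjusted p under 0.05 edgeR gave 0 higher and 5 lower, a count for which no share of all genes is given here. At an adjusted p DESeq2 gave 0 higher and 3 lower, against 1177 higher and 1572 lower of 14788 genes. With limma-voom it was 0 higher and 2 lower, against 878 higher and 1201 lower of 11539 genes. Under the replicate block, 5 were lower and none higher, or 55.6% against the 60.1% of all genes. The median of the list was -0.70 within batch 1 and -0.68 within batch 2, and it was -0.27 where the block was combined with the GC and length correction.

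ACTA2, the alpha actin of smooth muscle and the commonest marker of it, stood at 136, 146 and 134 CPM in SSC PDGF+ replicates 1 to 3 and at 299.9, 322 and 328 CPM in SSC PDGF-. The groups were far apart, and the spread within each was small. The level was 2.28-fold lower with PDGF (log2 fold change -1.19, SE 0.12, edgeR adjusted p = 0.0006). Among all genes tested, 935 had a lower log2 fold change. The fold was smaller, at a log2 fold change of -0.78, with the block and the GC and length correction, and remained called (adjusted p = 2.9e-11).

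DES, the intermediate filament protein desmin, is expressed in smooth and striated muscle. It stood at 2.90, 4.14 and 3.61 CPM in SSC PDGF+ and at 26.5, 38.1 and 38.4 CPM in SSC PDGF-. Every SSC PDGF- library was above every SSC PDGF+ library by a wide margin, and batch 1 was the lower one in both groups. The level was 9.67-fold lower with PDGF (log2 fold change -3.27, SE 0.24, edgeR adjusted p = 0.00015), and 153 of all genes tested fell further. The striated muscle markers also had a lower summed level with PDGF, 21.9 to 35.1 CPM against 42.1 to 59.8 CPM. TNNT1 was the most abundant of them, and its counts were identical to those of TNNI3. Its reads thus cannot be assigned to a single gene. None of the 3 markers tested was called by edgeR, and MYOD1 was at 0 in all libraries. The part of these markers in the DES difference was not tested.

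TAGLN, or transgelin, an actin-bundling protein early in smooth muscle development, had the same direction but missed the threshold. Its levels were 221, 316 and 330 CPM in SSC PDGF+ and 359, 533 and 504 CPM in SSC PDGF-. The groups did not overlap, although SSC PDGF+ replicate 3 lay close to SSC PDGF- replicate 1, which comes from the other batch. The log2 fold change was -0.69 (SE 0.21, edgeR adjusted p = 0.054), and it was -0.70 in batch 1 and -0.68 in batch 2. The adjusted p was 1.3e-11 with the replicate block, and the log2 fold change then fell in size to -0.16 when GC content and length were corrected for (adjusted p = 0.0045). It was called without SSC PDGF- replicate 1 (adjusted p = 0.011) and by DESeq2 with all libraries (adjusted p = 0.02).

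CNN1, or calponin, which inhibits myosin ATPase on thin filaments, was a low gene, at 1.28, 2.97 and 2.78 CPM in SSC PDGF+ and 3.61, 5.75 and 3.92 CPM in SSC PDGF-. The groups did not overlap, but the gap between them was narrow, and the log2 fold change of -0.92 (SE 0.38) had an edgeR adjusted p of 0.13. With the replicate block the adjusted p was 0.015, and with the GC and length correction added it was 0.21. ACTG2, the gamma actin of visceral smooth muscle, stood at 0.540, 0.704 and 1.5 CPM in SSC PDGF+ and 1.48, 2.49 and 2.84 CPM in SSC PDGF-, so that 1 library of each group overlapped. Its log2 fold change was -1.30 (SE 0.49, edgeR adjusted p = 0.10; replicate block, adjusted p = 0.018), and with the GC and length correction added the adjusted p was 0.09.

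The other restricted genes did not pass the test, with or without the block. MYH11, the smooth muscle myosin heavy chain, was at 6.89, 4.93 and 7.96 CPM in SSC PDGF+ and 7.15, 8.33 and 7.25 CPM in SSC PDGF-. The ranges overlapped, and the log2 fold change was -0.20 (SE 0.24, edgeR adjusted p = 0.60). SYNPO2, an actin-binding protein of smooth muscle dense bodies and the Z disc, gave -0.21 (adjusted p = 0.51). SMTN, smoothelin, gave 0.15 (adjusted p = 0.74), and 0.45 (adjusted p = 0.0013, higher) once the block was combined with the GC and length correction. LMOD1, which nucleates actin filaments in smooth muscle, gave 0.41 (adjusted p = 0.39) with opposite signs in batch 1 (-0.13) and batch 2 (0.77). MYOCD, the gene of myocardin, was covered by 4, 2 and 5 reads with PDGF and by 4, 0 and 3 reads without. The ratio of its summed counts per library size was 1.27 (exact 95% interval 0.45 to 3.87, counting error only), so that the interval holds 1 and is wide in both directions.

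**Figure D2:**
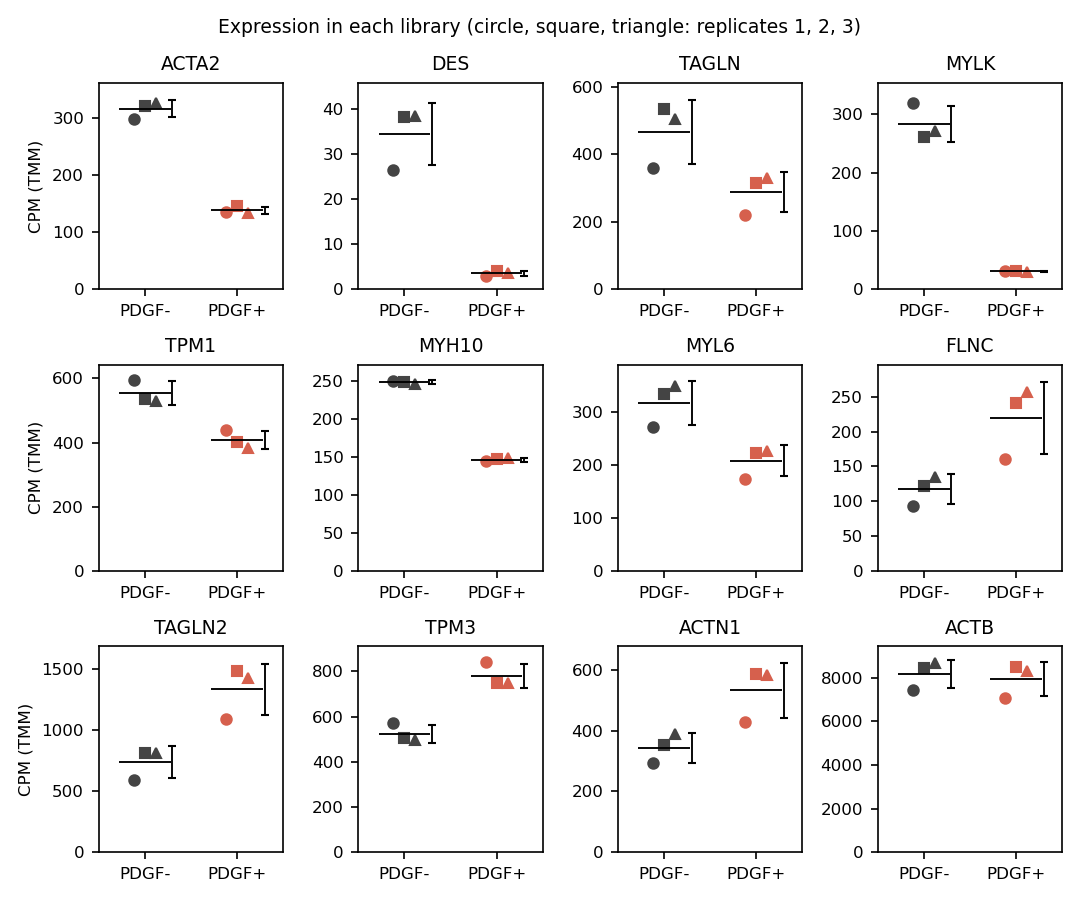
CPM (y axis, from 0) of 12 members in each of the 6 libraries, with SSC PDGF- in grey and SSC PDGF+ in red; circles, squares and triangles are replicates 1, 2 and 3, lines are group means and bars are SDs (n = 3). ACTA2, DES, MYLK and MYH10 separate by group with little spread, FLNC, TAGLN2 and ACTN1 rise with replicate 1 lowest in each group, and ACTB overlaps.

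MYLK, the kinase that starts contraction by phosphorylating the regulatory light chain, had the lowest adjusted p of the members. It stood at 31.4, 31.2 and 30.0 CPM in SSC PDGF+ and at 319, 261 and 271 CPM in SSC PDGF-. The 3 libraries with PDGF were nearly equal, and all lay far below those without. The level was 9.20-fold lower (log2 fold change -3.20, SE 0.14, edgeR adjusted p = 3.3e-05), with -3.34 in batch 1 and -3.12 in batch 2, and 171 of all genes tested fell further. MYLK was called under all alternatives tried, including the GC and length correction (-3.24). The gene also encodes a long non-muscle kinase and the short protein telokin, and counts per gene cannot tell these products apart.

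The remaining muscle-enriched genes moved in different directions. TPM1, a tropomyosin that lies along thin filaments, was lower, with 439, 401 and 384 CPM in SSC PDGF+ against 596, 535 and 531 CPM in SSC PDGF- (log2 fold change -0.44, SE 0.12, edgeR adjusted p = 0.039). FLNC, the muscle filamin, which crosslinks actin at the Z disc and cell edge, was higher. Its levels were 160.4, 241 and 257 CPM in SSC PDGF+ and 92.9, 122 and 135 CPM in SSC PDGF-. The groups did not overlap, and within each the batch 1 library was lowest (log2 fold change 0.91, SE 0.22, edgeR adjusted p = 0.024). TPM2 was at 653 ± 53.6 CPM with PDGF and 674 ± 90.3 CPM without (log2 fold change -0.05, SE 0.14, adjusted p = 0.85). It was called higher with the block and the GC and length correction (0.25, adjusted p = 3.9e-05). CALD1, or caldesmon, which ties actin to myosin, had a log2 fold change of 0.38 (SE 0.17, edgeR adjusted p = 0.16; replicate block, 1.7e-06, higher). Its smooth muscle and non-muscle isoforms are products of 1 gene and were not separated here. Of the 5 muscle-enriched genes tested, 1 was thus higher and 2 lower, or 60.0% against the 18.3% of all genes. The median log2 fold change of the list was -0.05. With the block 2 were higher and 2 lower, or 80.0% against the 60.1% of all genes.

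The 23 broadly expressed actomyosin genes ranged widely in level, from ACTB at the top to LPP at about 4 CPM in both groups. Of these, 3 were higher (TAGLN2, ACTN1, TPM3) and 2 lower (MYH10, MYL6), or 21.7% against the 18.3% of all genes, and the median log2 fold change was 0.12. Under the replicate block 12 were higher and 6 lower (78.3%, against 60.1% of all genes). The groups did not overlap for 10 of them (43.5%, against 37.6% of all genes), of which 7 were above and 3 below in SSC PDGF+. MYL12A and MYL12B, the regulatory light chains of non-muscle myosin, had identical counts in all libraries, as did CNN3 and ALG14, so that their reads cannot be assigned to a single gene and MYL12A and MYL12B are 1 measurement.

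Among the non-muscle myosin genes, MYH10, the heavy chain of myosin IIB, was lower with PDGF. It stood at 144, 147 and 149 CPM in SSC PDGF+ and 249.9, 248 and 245 CPM in SSC PDGF-, the tightest pair of groups among the called members (log2 fold change -0.76, SE 0.12, edgeR adjusted p = 0.0037). MYH10 is the myosin heavy chain counted among synthetic markers of vascular smooth muscle. MYH9, the heavy chain of myosin IIA, was at 888, 1277 and 1286 CPM with PDGF and 768, 1094 and 1080.2 CPM without, with overlap between the groups (log2 fold change 0.23, SE 0.20, edgeR adjusted p = 0.45; replicate block, 1.1e-05, higher). MYL6, the essential light chain shared by smooth and non-muscle myosin, was lower, with 173, 222 and 227 CPM against 271, 333 and 348 CPM (log2 fold change -0.61, SE 0.16, edgeR adjusted p = 0.034). Its log2 fold change was -0.12 in the blocked fit with the GC and length correction (adjusted p = 0.028). The shared MYL12A and MYL12B counts gave 0.38 (edgeR adjusted p = 0.12; replicate block, 2.5e-06, higher).

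TAGLN2, the non-muscle paralogue of transgelin, was higher with PDGF, at 1089, 1482 and 1422 CPM against 591, 808 and 815 CPM. All SSC PDGF+ libraries were above all SSC PDGF- libraries (log2 fold change 0.85, SE 0.18, edgeR adjusted p = 0.013). TPM3, a tropomyosin of non-muscle filaments and slow muscle, was also higher, at 843, 751 and 751 CPM against 572, 508 and 497 CPM (log2 fold change 0.57, SE 0.12, edgeR adjusted p = 0.014). ACTN1, which crosslinks actin in stress fibres and anchors it at adhesions, rose to 428, 586 and 583 CPM from 292, 351 and 389 CPM (log2 fold change 0.63, SE 0.17, edgeR adjusted p = 0.039). Its paralogue ACTN4 gave -0.25 (adjusted p = 0.51; replicate block, 0.00011, lower; with the GC and length correction added, 0.97), and the tropomyosin TPM4 gave 0.21 (adjusted p = 0.46; replicate block, 0.00088, higher).

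The cytoplasmic actins ACTB and ACTG1 had the highest CPM of the members, and their groups overlapped. ACTB was at 7948 ± 784 CPM with PDGF and 8160 ± 659.7 CPM without (SD, n = 3; log2 fold change -0.04, SE 0.12, edgeR adjusted p = 0.85), and ACTG1 was at 5959 ± 845 CPM and 5656 ± 678 CPM (log2 fold change 0.08, SE 0.14, adjusted p = 0.75). ACTG1 was higher with the replicate block (adjusted p = 0.035) and not with replicates 2 and 3 summed and batch as a term (0.096). With the block and the GC and length correction both genes were called higher, each at a log2 fold change of 0.35 (adjusted p = 9.2e-10 for ACTB and 1.5e-09 for ACTG1). VIM, the intermediate filament of mesenchymal cells and another marker counted as synthetic, was at 2793, 2994 and 3039 CPM with PDGF and 3207, 3466 and 3470.4 CPM without. The groups did not overlap, yet the log2 fold change of -0.20 (SE 0.10) had an edgeR adjusted p of 0.21; with the block it was 7.3e-06, lower, and with the GC and length correction the value was -0.03 (adjusted p = 0.49). CNN2 and CNN3, the calponins of other tissues, gave -0.38 and -0.22 (adjusted p = 0.17 and 0.28), and both were lower under the block. With the GC and length correction added, CNN2 was no longer called (-0.10, adjusted p = 0.18).

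The genes of focal adhesions and their actin anchors showed small differences. TLN1, or talin, which links integrins to actin, had a log2 fold change of 0.50 (SE 0.17) with groups that did not overlap, 335, 454 and 459.5 CPM against 255, 312 and 317 CPM, and an edgeR adjusted p of 0.073. It was called with the replicate block (adjusted p = 5.5e-09) and without SSC PDGF+ replicate 1 (0.02). VCL, or vinculin, was at 274 ± 4.51 CPM and 243 ± 14.2 CPM (log2 fold change 0.18, edgeR adjusted p = 0.33; replicate block, 0.0025, higher). FLNA gave 0.12 and ZYX 0.15, each with an adjusted p above the threshold in the main fit (0.75 and 0.77) and each higher under the block (0.0062 and 0.0037). PALLD (0.04), LPP (0.12), PDLIM5 (0.0011) and PDLIM7 (0.01) had adjusted p-values of 0.78 to 1.00 and were not called under the block either. With the GC and length correction added, PDLIM7 was called higher (0.47, adjusted p = 2.9e-08) and PDLIM5 lower (-0.24, adjusted p = 0.00088). In that fit FLNA (0.30, adjusted p = 2.9e-07) and ZYX (0.60, adjusted p = 3.3e-10) stayed higher. PALLD and LPP were not called there (adjusted p = 0.46 and 0.79). PDLIM7, an adaptor of actin filaments, illustrates the batches: it was 150.3, 287 and 279.7 CPM with PDGF and 143, 287 and 281 CPM without.

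Ratios within a paralogue family do not depend on the normalization between libraries. ACTA2 and ACTG2 together took 1.00% ± 0.111 (SD, n = 3) of the summed counts of ACTA2, ACTG2, ACTB and ACTG1 in SSC PDGF+ and 2.26% ± 0.113 in SSC PDGF-. The libraries gave 1.12%, 0.981% and 0.904% with PDGF and 2.39%, 2.19% and 2.20% without, so that the groups did not overlap. TAGLN took 17.8% ± 0.981 of both transgelins with PDGF and 38.6% ± 1.03 without; TAGLN was not called and TAGLN2 rose. TPM1 and TPM2 took 51.1% ± 0.871 of the 4 tropomyosins against 62.8% ± 1.5. FLNC moved the other way, from 7.99% ± 0.538 of FLNA and FLNC without PDGF to 13.0% ± 0.464 with it. MYH11 took 0.520% ± 0.161 of the 3 myosin heavy chains against 0.619% ± 0.0764, and CNN1 took 0.615% ± 0.260 of the 3 calponins against 0.963% ± 0.270; in both the groups overlapped. These shares were compared without a test, and a share shows unequal change of its genes and not which of them changed. Within batches the differences were alike: -1.27 and -1.26 percentage points for the actins, -20.9 and -20.8 for the transgelins, and -11.4 and -11.8 for the tropomyosins in batches 1 and 2.

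**Figure D3:**
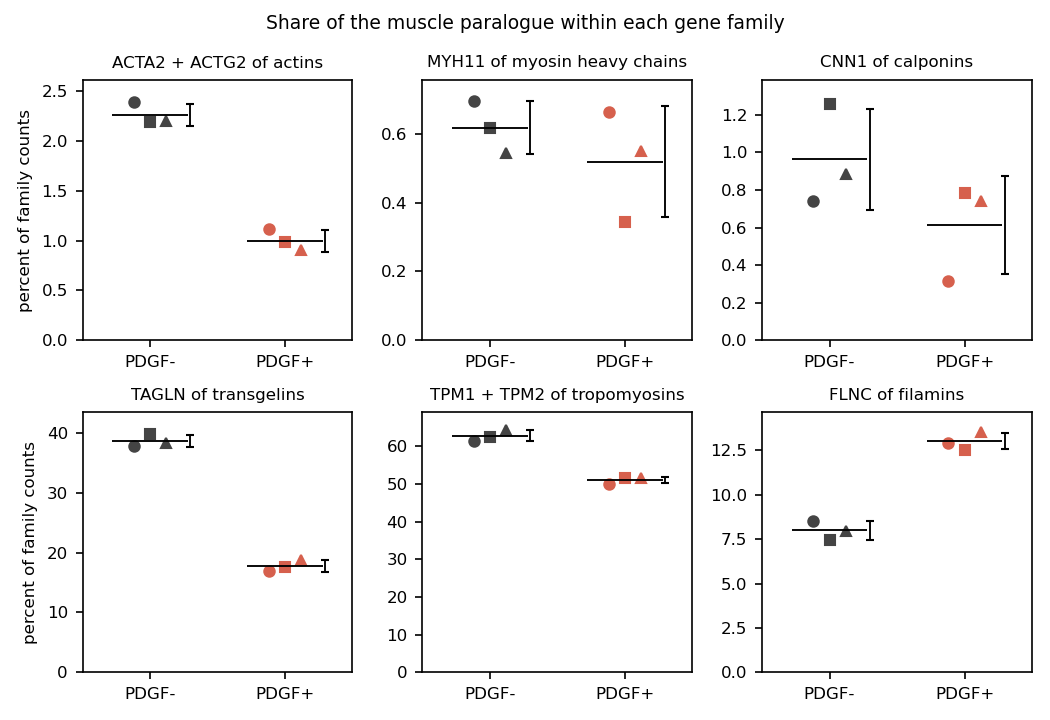
Share of the muscle paralogue in the counts of its family (y axis, percent, from 0) in each library, with symbols, lines and bars as in the plot of levels by library. The actin, transgelin and tropomyosin shares are lower in all SSC PDGF+ libraries, the filamin share is higher, and the MYH11 and CNN1 shares overlap.

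SRF and its cofactors were measured as transcripts only, while their action is set largely by where the MRTF proteins sit in the cell. SRF was at 84.2, 114 and 111 CPM with PDGF and 85.2, 97.3 and 111 CPM without, with overlap (log2 fold change 0.08, SE 0.17, edgeR adjusted p = 0.79). It was called higher with the block and the GC and length correction (0.33, adjusted p = 7.1e-05). MRTFA was at 43.0, 60.9 and 67.5 CPM and 54.9, 76.2 and 75.1 CPM (log2 fold change -0.27, SE 0.21, adjusted p = 0.42; replicate block, 0.0024, lower), and with the GC and length correction added it was at -0.02 (adjusted p = 0.79). MRTFB was at 12.7, 9.38 and 12 CPM with PDGF and 6.57, 5.56 and 8.33 CPM without, and these groups did not overlap (log2 fold change 0.74, SE 0.23, adjusted p = 0.062; replicate block, 0.0013, higher). With the GC and length correction added MRTFB stayed higher (0.59, adjusted p = 0.0095). Of the 3 genes, edgeR thus called 0 in the main fit, against 18.3% of all genes. At an unadjusted p under 0.05, 1 was higher, and no share of all genes is given here for that threshold. DESeq2 called 1 higher and limma-voom 0.

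SRF binds a short palindromic element called the CArG box. Its strict form, with only A or T in the centre, was looked for on both strands in the window from 250 bases before to 50 after the gene start in RefSeq's annotation of Mmul_10. The window held a box in 8 of the 42 members (19.0%), against 249 of 20773 protein-coding genes (1.20%). By group it was 2 of the 10 smooth-muscle-restricted genes (ACTG2, TAGLN), 1 of the 6 muscle-enriched genes (MYL9) and 5 of the 23 broadly expressed genes (ACTB, ACTG1, FLNA, VCL, TPM3). The stretches upstream of the start are shown for 4 tested members that hold a box there, with the box in capitals, so that boxes of restricted and of broad genes can be compared; each is written 5′ to 3′ on the strand of the gene.
ACTG2, chr13:34939372-34939452, minus strand: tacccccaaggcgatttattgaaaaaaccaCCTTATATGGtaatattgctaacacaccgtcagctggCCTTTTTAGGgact
TAGLN, chr14:110259915-110259984, plus strand: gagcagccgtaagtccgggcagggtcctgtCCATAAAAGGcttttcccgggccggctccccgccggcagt
FLNA, chrX:150281680-150281749, plus strand: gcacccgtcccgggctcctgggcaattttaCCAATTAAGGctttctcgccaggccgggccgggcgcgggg
VCL, chr9:63805314-63805381, minus strand: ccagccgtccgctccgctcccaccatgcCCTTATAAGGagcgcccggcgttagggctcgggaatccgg

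ACTG2 is the member with a pair of boxes close to its start. The 7 tested members with a box did not share a direction: 4 had values above 0 and 3 below, with log2 fold changes from -1.30 for ACTG2 to 0.57 for TPM3, and TPM3 was the only one called. A match is a description of the sequence and not a measured binding site, and windows without a strict box, such as those of ACTA2, CNN1 and MYH11, say nothing about SRF at those genes.

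Levels compared per kilobase of exon show where the muscle genes stand among the members. In SSC PDGF+ the means of the tested members ran from 5018 CPM per kb for ACTB and 2929.7 for ACTG1 through 921 for VIM and 801 for TAGLN2 down to 0.229 for LPP. ACTA2 was at 108 CPM per kb with PDGF and 246 without, and TAGLN at 219.7 and 354. MYLK was at 2.93 and 27.0 CPM per kb, and DES at 1.55 and 15.0. MYH11, at 0.953 and 1.10, and CNN1, at 1.38 and 2.61, stood near the bottom in both groups, and so did ACTG2 at 0.679 and 1.68. The markers of contractile smooth muscle were thus unequal in level in these cultures before any comparison with PDGF, with ACTA2 and TAGLN high and MYH11, CNN1 and ACTG2 low.

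For many members the batches differed by more than the groups. Log2 CPM was higher in batch 2 than in batch 1 in both groups for 25 of the 40 tested members and lower in both for 10. PDLIM7 (0.91 with PDGF, 0.98 without), ZYX (0.86 and 0.93), FLNA (0.63 and 0.63) and ACTN4 (0.62 and 0.67) had higher values in batch 2, while PDLIM5 (-0.51 and -0.40) and CALD1 (-0.37 and -0.32) had lower ones. For 17 members the mean size of this shift exceeded that of the log2 fold change with PDGF. The sign of the PDGF difference was the same in both batches for 34 of the 40 and for all 10 called members. Those 10 were called from these same libraries, so their agreement is not independent of the calls. Shares of all genes for the counts in this paragraph are not given here.

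**Figure D4:**
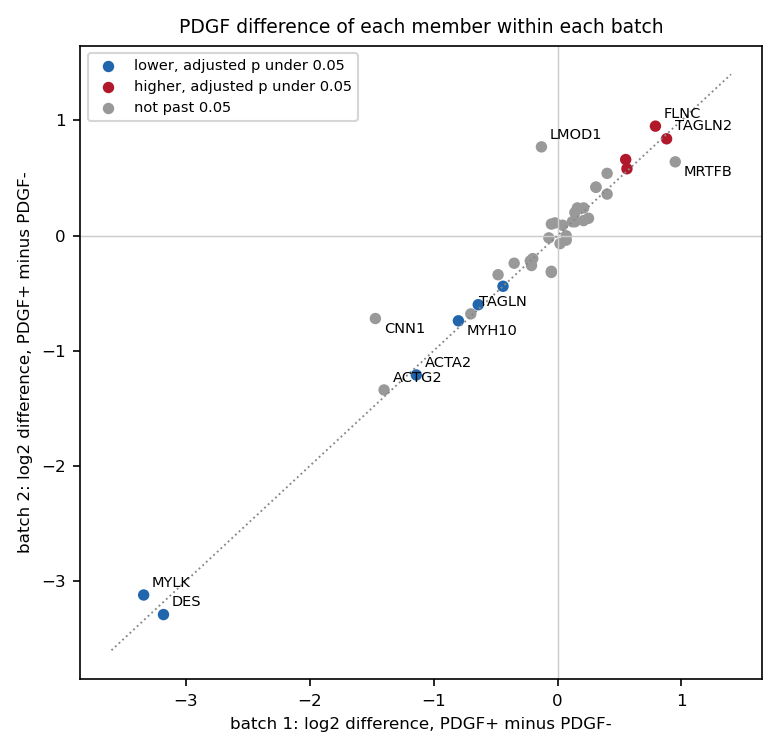
Log2 difference between SSC PDGF+ and SSC PDGF- within batch 1 (x axis, 1 library per group) and batch 2 (y axis, 2 libraries per group) for the 40 tested members; the dotted line marks equal values. The called members, in blue and red, lie close to the line, but they were called from these same libraries. CNN1 (-1.47 and -0.72) and LMOD1 (-0.13 and 0.77) lie away from the line.

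The calls differed in how firmly they were held. ACTA2, DES, MYLK and MYH10 were called with any 1 library left out. When replicates 2 and 3, which share a batch, were summed into 1 library per group and no batch term was used, ACTA2 (edgeR adjusted p = 0.033), DES (0.0068) and MYLK (0.0062) were the members called. TAGLN2 was not called without SSC PDGF+ replicate 2 (0.054) or 3 (0.051), and FLNC was not called without SSC PDGF+ replicate 2 (0.077) or 3 (0.082) or SSC PDGF- replicate 2 (0.076). TPM3 was not called without SSC PDGF+ replicate 2 (0.051) or SSC PDGF- replicate 2 or 3 (both 0.072). In these fits with 1 library left out, ACTN1 was called only without SSC PDGF+ replicate 1 (0.012), MYL6 only without SSC PDGF- replicate 1 (0.012) and TPM1 only without SSC PDGF+ replicate 1 (0.04), with adjusted p-values of up to 0.12, 0.13 and 0.16 without another library. The signs of all 10 were the same throughout.

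Other genes of the contractile program, outside the members, moved in both directions. Of 16 tested, 5 were higher and 6 lower (68.8%, against 18.3% of all genes), with a median log2 fold change of -0.14. This list and the further lists below were drawn up with earlier results of these data known. Their shares describe the lists and are not independent of those results. The largest rises were ITGA8 (2.04, SE 0.18, edgeR adjusted p = 0.0003), the integrin alpha 8 chain, KCNMA1 (1.66, adjusted p = 0.0011), the large-conductance calcium-activated potassium channel, and TNS1 (1.44, adjusted p = 0.0011), tensin, and PGM5 also rose. The largest falls were ITGA7 (-1.37, adjusted p = 0.041), the laminin-binding integrin alpha 7 chain, CRYAB (-1.21, adjusted p = 0.0034), a small heat shock protein that protects desmin filaments, and SYNM (-0.87, adjusted p = 0.038), synemin, a partner of desmin; FHL1, CSRP1 and PDLIM3 were the other 3.

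The synthetic genes did not move in a single direction. Of 16 tested, 2 were higher, COL8A1 (log2 fold change 1.03, edgeR adjusted p = 0.0077), a short-chain collagen of the vessel wall, and S100A4 (0.93, adjusted p = 0.019), a calcium-binding protein of motile cells. The 4 lower were MGP (-1.51, adjusted p = 0.00019), an inhibitor of calcification, GJA1 (-1.17, adjusted p = 0.0035), the gap junction protein connexin 43, MMP2 (-1.12, adjusted p = 0.0017), a gelatinase, and COL3A1 (-1.07, adjusted p = 0.00042), a fibrillar collagen. These 6 calls were 37.5% of the list, against 18.3% of all genes. The median was 0.12, and with the replicate block 8 were higher and 5 lower (81.2%, against 60.1%). KLF4, the factor that represses contractile genes under PDGF in vascular smooth muscle, was at 16.5 ± 3.47 CPM and 15.3 ± 1.23 CPM (log2 fold change 0.11, adjusted p = 0.74), and SPP1, osteopontin, a common synthetic marker, was at 16.1 ± 0.524 CPM and 17.8 ± 2.09 CPM (-0.15, adjusted p = 0.56).

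**Figure D5:**
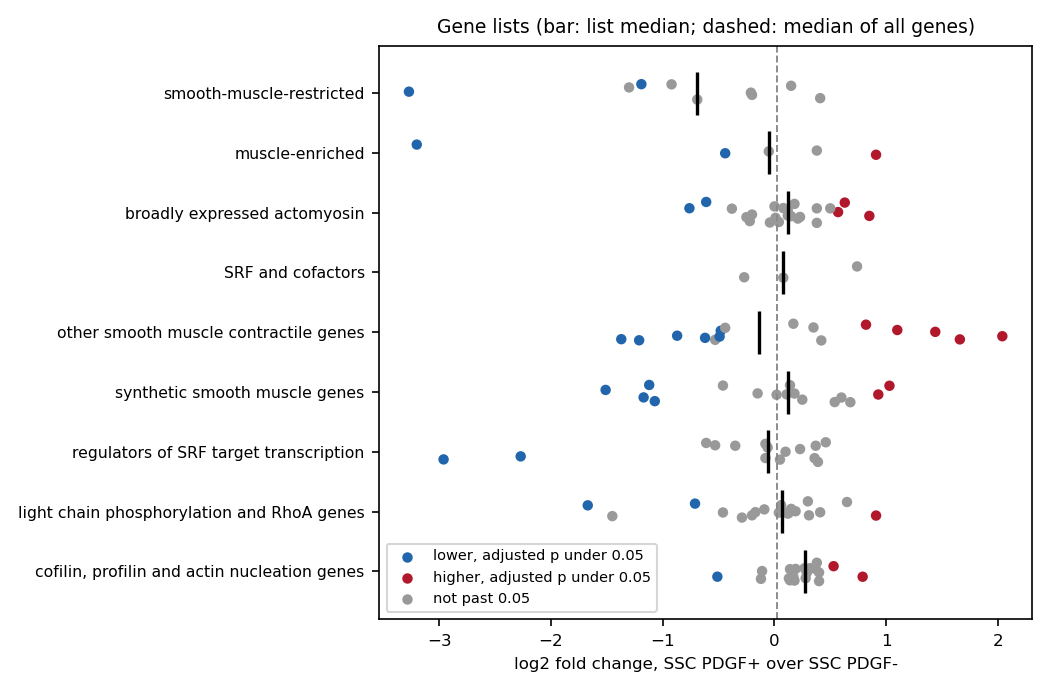
Log2 fold change (x axis, SSC PDGF+ over SSC PDGF-) of each tested gene of the 4 groups of members and 5 further lists, with bars at the list medians and a dashed line at the median of all genes (0.02). The smooth-muscle-restricted list has the lowest median (-0.69), while the synthetic list holds calls on both sides (2 higher, 4 lower).

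Of the 15 tested regulators of SRF target transcription, edgeR called 2 lower and 0 higher. At an unadjusted p under 0.05 it gave 0 higher and 4 lower, a count for which no share of all genes is given here. DESeq2 and limma-voom each called 0 higher and 2 lower. The 2 called by edgeR were HEY1 (log2 fold change -2.96, SE 0.19, edgeR adjusted p = 0.0001), a Notch target and transcriptional repressor, and JAG1 (-2.27, SE 0.25, adjusted p = 0.00094), a Notch ligand. With the replicate block 3 were higher and 4 lower. Of 20 genes of light chain phosphorylation and RhoA signalling, 1 was higher, ROCK2 (0.91, SE 0.22, adjusted p = 0.026), a kinase that inhibits myosin phosphatase, and 2 were lower, among them ARHGEF11 (-0.71, adjusted p = 0.018), a RhoA exchange factor. The block gave 8 higher and 7 lower. Of 19 cofilin, profilin and actin nucleation genes, 2 were higher, TMOD3 (0.79, adjusted p = 0.021), which caps pointed ends, and MSN (0.53, adjusted p = 0.013), which links actin to the membrane, and 1 was lower, TMSB4X (-0.51, adjusted p = 0.016), which binds actin monomer. Here the block gave 16 higher and 1 lower, and the median was 0.27. ARPC1A and ARPC1B, both among the 16, had identical counts in all libraries and are 1 measurement. The counts of ARPC4 were identical to those of TTLL3. The shares called in these 3 lists, in this order, were 13.3%, 15.0% and 15.8%, all below the 18.3% of all genes, and with the block they were 46.7%, 75.0% and 89.5%, against 60.1%.

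Markers of other cell types were summed in the same libraries. The pericyte and vascular mural markers summed to 293 to 439.6 CPM in SSC PDGF+ and 166 to 259 CPM in SSC PDGF-, with MCAM (log2 fold change 0.95, edgeR adjusted p = 0.013) and RGS5 (1.94, adjusted p = 0.0078) higher among 5 tested and NDUFA4L2 at 0 in all libraries. The peritubular myoid markers that are no members summed to 222 to 226 CPM and 195 to 211 CPM. The most abundant of them was PI4K2A, whose counts were identical to those of HOGA1, so that its reads cannot be assigned to a single gene. By edgeR 1 of 5 was called, DLC1 (0.97, adjusted p = 0.0034), higher, and ITGA9 was at -0.21 (adjusted p = 0.80). RERGL was at 0 in all libraries and DPEP1 at 0.299 CPM or less on average. The epithelial markers summed to 35.6 to 51.9 CPM with PDGF and 91.3 to 126 CPM without, and 4 of 5 were lower. Beside the calls in these marker lists, 7.61% of all genes tested were higher and 10.7% lower. The part of these cell types in the values of the members was not tested.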

How the data were processed

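Bulk RNA-seq counts per gene were analysed for 3 SSC PDGF+ and 3 SSC PDGF- libraries. The authors deposited expected counts without normalization (34 values of 13 genes were not whole), which were rounded; the plan had assumed whole counts. The submitters' processing notes name fastp, HISAT2 2.1.0, SAMtools and featureCounts 2.0.1, and the builds Mmul_10 and Mmul_8.0.1 without saying which was used; 17389 of the 17795 gene names were found in RefSeq's annotation of Mmul_10, the build of the coordinates, lengths and sequences. Strand and multi-mapping settings were not given in the sources used here. Counts were normalized by TMM, filtered with filterByExpr and fitted by edgeR 4.0.16 (R 4.3.3, quasi-likelihood test, no block), with Benjamini-Hochberg adjustment over all 11539 genes tested. Each standard error was taken from the log2 fold change and its F statistic, and within-batch differences had 0.5 counts added. The steps were tested on simulated counts.

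The labels give libraries with the same replicate number the same batch. Their deviations from the group means correlated, with r = 0.667, 0.291 and 0.308 for numbers 1, 2 and 3. The crossed pairs of batch 2 gave 0.321 and 0.301, so the values show no pairing by number within batch 2. A replicate block was fitted as an alternative, beside other normalizations, filters, DESeq2 1.42.0, limma-voom (limma 3.58.1), batch terms, summed replicates and libraries left out. The members and lists were chosen with earlier results of these data known. Named genes are all members, up to 3 called genes in each direction per further list, and defining markers; COL3A1, KLF4, SPP1 and further called genes given by name alone fall outside this and were named after their values were seen. Some items, a called gene that the naming rule would include among them, are not reported here. Figures were drawn with Python 3.11.15 and matplotlib 3.10.9.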

Additional observations from a re-analysis of the deposited data

How the results depend on the processing

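The 10 called members kept their sign under all alternatives tried, and ACTA2, DES and MYLK were called under all of them. Over the 40 tested members, 397 values under alternatives other than leaving out a library kept sign and side of the threshold, 97 passed it newly, 10 no longer passed it and 15 changed sign. Counts of called genes are given below in the order all members, smooth-muscle-restricted, muscle-enriched, broadly expressed, SRF and cofactors, other contractile, synthetic, SRF target regulators, light chain and RhoA, and cofilin and nucleation genes, against 10, 2, 3, 5, 0, 11, 6, 2, 3 and 3 in the main comparison. The replicate block, whose numbers lie within the batches, gave 29, 5, 4, 18, 2, 13, 13, 7, 15 and 17. Batch as a term gave 29, 5, 4, 18, 2, 13, 13, 7, 16 and 18, and batch 2 alone gave 29, 5, 4, 18, 2, 14, 12, 7, 12 and 16. The block with the GC and length correction gave 29, 4, 5, 18, 2, 13, 14, 9, 13 and 16. Replicates 2 and 3 summed gave 3, 2, 1, 0, 0, 3, 4, 2, 0 and 0, and 28, 5, 4, 17, 2, 14, 13, 7, 15 and 14 with batch as a term. An adjusted p under 0.01 gave 4, 2, 1, 1, 0, 4, 5, 2, 0 and 0, and a log2 fold change of at least 1 in size gave 3, 2, 1, 0, 0, 6, 5, 2, 1 and 0. DESeq2 gave 13 members in all, with TAGLN, TLN1 and MRTFB added, 1 for SRF and cofactors and 5 for light chain and RhoA genes. Leaving out 1 library gave 4 to 11, 2 to 3, 1 to 3, 1 to 6, 0 to 0, 4 to 11, 5 to 9, 2 to 4, 1 to 5 and 0 to 4. The lowest member counts came without SSC PDGF+ replicate 2 (4) or 3 (5) and SSC PDGF- replicate 2 (5) or 3 (6). The actin and transgelin share differences were -1.68 and -22.8 percentage points per kilobase, against -1.26 and -20.8.

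Sign changes were seen in 11 uncalled members. With the block and the GC and length correction the log2 fold change was 0.25 for TPM2, 0.35 for ACTB, -0.035 for PALLD, -0.24 for PDLIM5 and -0.092 for LPP. Upper quartile normalization gave -0.054 for PDLIM7, -0.022 for PALLD and -0.061 for PDLIM5, and the stricter count filter gave -0.023 for PDLIM7 and -0.031 for PDLIM5. PDLIM5 was also at -0.00595 with limma-voom, -0.0037 with the replicate block, -0.0047 with batch as a term and -0.061 in batch 2 alone, where PDLIM7 was at -0.0204. With 1 library left out the values ran from -0.061 to 0.47 for SMTN, -0.15 to 0.058 for TPM2, -0.26 to 0.27 for PDLIM7, -0.11 to 0.0515 for ACTB, -0.033 to 0.20 for ACTG1, -0.076 to 0.31 for FLNA, -0.11 to 0.39 for ZYX, -0.021 to 0.15 for PALLD, -0.18 to 0.14 for PDLIM5 and -0.027 to 0.21 for SRF. The cause of these changes was not tested. With 3 libraries a group, low genes such as MYOCD, ACTG2 and CNN1 could be compared only coarsely.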
